A study of Homo sapiens with 15 samples.

Results

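Notch receptors, ligands and target genes were followed as 8 genes among the 18338 genes measured in 15 RNA-Seq libraries. The members were the receptors NOTCH1, NOTCH2 and NOTCH3, the ligands DLL1, JAG1 and JAG2, and the target genes HES1 and HEY1, found by gene symbol. The set was chosen by the FPKM of NOTCH3, seen to be lower after thapsigargin than in control cells, so the thapsigargin values of all 8 members are given as a description, without a test. Every library came from Biosensor cells, a HEK293 line, of human embryonic kidney origin, with a stable fusion of the P301S-mutant tau repeat domain to yellow fluorescent protein, TauRD(P301S)-YFP. In the control group (n = 5), the cells were transfected for 24 h with soluble brain lysate from wildtype mice. In the PS19 group (n = 5), the lysate came from PS19 littermates, which express human 1N4R tau with P301S from the Prnp promoter. Both lysates were from male mice of 6 months, and lysate from PS19 brains makes the tau fusion protein form aggregates. The third group (n = 5) was treated with 0.3 µM thapsigargin, a blocker of the calcium pump of the endoplasmic reticulum (ER) used as the positive control for ER stress. How long these cells were in thapsigargin, and whether they also received control lysate, is not given in the sources used here. The sources call the 5 libraries of each group independent replicates but name no separate cultures, so that p-values here measure only how far libraries differ, which can be technical.

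Notch receptors are single-pass membrane proteins that mature through the ER and Golgi, where their extracellular repeats are folded and glycosylated and the chain is cut by furin. A ligand on a neighboring cell, of the Delta-like (DLL) or Jagged (JAG) family, exposes a site for ADAM10, after which gamma-secretase releases the intracellular domain. That domain enters the nucleus, binds the DNA-binding protein RBPJ with Mastermind-like co-activators and switches on HES and HEY genes, which encode transcriptional repressors. HEK293 cells are embryonic kidney cells with neural and progenitor traits, and Notch signaling is known for controlling progenitor fate in both kidney and nervous system.

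Values are FPKM, fragment counts divided by the length of the transcript and by the total of fragments mapped, which can be compared between genes because they are divided by length. The study's methods give a nominal number of reads per sample, but the actual number behind each library is unknown here. A list of 8 neural, progenitor and other genes known in HEK293 cells held NEFL, NEFM, INA, PAX2, LHX1, VIM, KRT8 and KRT18. Of these, 7 reached 1 FPKM in every group, and the summed level of the 8 was 592.64 to 774.62 FPKM over all libraries. Of the 4 mature kidney markers in the files none did in any group, and SLC12A1 was at 0 in all libraries. Of 5 neuronal markers, 3 to 4 reached 1 FPKM (sum 9.21 to 12.40), against 0 to 1 of 6 glial markers (0.59 to 1.76), 1 of 5 endothelial and smooth muscle markers (3.70 to 6.59) and 0 to 1 of the 3 blood markers in the files (0.65 to 1.29). Thapsigargin raised the ER stress genes HSPA5, a chaperone, with a log2 fold change of 2.69, DDIT3, a transcription factor, with 3.70, and SDF2L1, an ER co-chaperone, with 3.0 (adjusted p = 4.2e-08, 4.7e-09 and 6.5e-09 from limma). FPKM summed to 506146 to 552511 in the control libraries, 523601 to 547043 in the PS19 libraries and 551499 to 637687 in the thapsigargin libraries. The libraries also differed in the level of long transcripts against short ones, and FPKM alone cannot tell coverage from expression. The median log2 level of 2078 genes with transcripts of at least 6000 bases, minus that of 1525 genes of at most 1500 bases, was -0.24 and -0.19 in control libraries 1 and 2 and -0.01, 0.20 and 0.23 in control libraries 3, 4 and 5, relative to the control mean. It was -0.17 to 0.01 in the PS19 libraries, and -0.79, -0.96, -0.29, -0.72 and -0.57 in thapsigargin libraries 1 to 5. This long-transcript index is set beside the results below because the Notch receptors have long transcripts, of 9568 bases for NOTCH1, 11425 for NOTCH2 and 8680 for NOTCH3.

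The sequence that precedes the transcription start is shown for NOTCH3, the receptor that led to this gene set, and for HES1 and HES4, target genes whose promoters carry the RBPJ motif. All 3 are 250-base stretches from RefSeq on GRCh38.p14 that end at the base before the start site, written 5′ to 3′ on the strand of the gene, with each TGGGAA, the core of the RBPJ motif, in capitals. NOTCH3 lies on the minus strand of chromosome 19 with its promoter at chr19:15200996-15201245, HES1 on the plus strand of chromosome 3 at chr3:194135898-194136147, and HES4 on the minus strand of chromosome 1 at chr1:1000098-1000347.
NOTCH3: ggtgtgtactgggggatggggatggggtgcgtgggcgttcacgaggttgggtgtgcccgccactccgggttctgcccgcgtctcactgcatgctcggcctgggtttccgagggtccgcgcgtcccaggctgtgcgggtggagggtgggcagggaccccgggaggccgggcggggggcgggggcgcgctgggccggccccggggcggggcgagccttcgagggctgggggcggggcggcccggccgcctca
HES1: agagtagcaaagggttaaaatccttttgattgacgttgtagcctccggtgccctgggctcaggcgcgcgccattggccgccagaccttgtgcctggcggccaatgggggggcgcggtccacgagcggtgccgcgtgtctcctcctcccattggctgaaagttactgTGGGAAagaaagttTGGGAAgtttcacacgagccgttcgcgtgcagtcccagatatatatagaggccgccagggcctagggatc
HES4: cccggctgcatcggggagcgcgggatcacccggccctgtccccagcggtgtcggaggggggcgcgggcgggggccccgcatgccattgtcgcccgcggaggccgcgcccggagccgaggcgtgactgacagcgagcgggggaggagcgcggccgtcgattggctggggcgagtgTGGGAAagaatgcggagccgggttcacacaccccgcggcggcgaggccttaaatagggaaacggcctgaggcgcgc
Searched on both strands, TGGGAA occurred 2 times in the HES1 stretch, 84 and 70 bases before the start and both on the strand of the gene, and 1 time in the HES4 stretch, 76 bases before it. It occurred in neither the NOTCH1, NOTCH2 and NOTCH3 stretches nor those of JAG1 and JAG2. Of other target genes searched, HEYL held 2 matches, HEY2 held 1 and NRARP held 0. Among 35116 promoters of the same length, 20.8% held TGGGAA, so that a match by itself is common. Motifs of the ER stress response were searched in the same stretches: the ER stress element (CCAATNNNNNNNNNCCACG, in 0.074% of all promoters), the unfolded protein response element (TGACGTGG, 0.612%) and the amino acid response element (TGATGNAA, 3.14%). The more general cyclic AMP response element (TGACGTCA, 1.65%) and E-box CACGTG (6.34%) were searched as well. None of these was found in the stretches of NOTCH1, NOTCH2, NOTCH3, JAG1, JAG2, HES1 or HES4. The table used held no entry for DLL1 or HEY1.

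Among the receptors, NOTCH3 was lower in every thapsigargin library than in any other library. NOTCH3 encodes a receptor best known from vascular smooth muscle and lies on chromosome 19 from 15159038 to 15200995 (GRCh38.p14). It measured 8.46, 8.60, 7.22, 7.69 and 8.35 FPKM in control libraries 1 to 5, 7.24, 6.5, 7.30, 7.72 and 7.64 FPKM in the PS19 libraries, and 3.24, 3.08, 2.54, 2.83 and 2.55 FPKM in the thapsigargin libraries. The control and PS19 values overlapped, and the lowest of those 10 values was above the highest of the thapsigargin group. The log2 fold change of FPKM + 0.5 against control was -1.36 (SE 0.09) for thapsigargin and -0.14 (SE 0.07) for PS19.

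**Figure D1:**
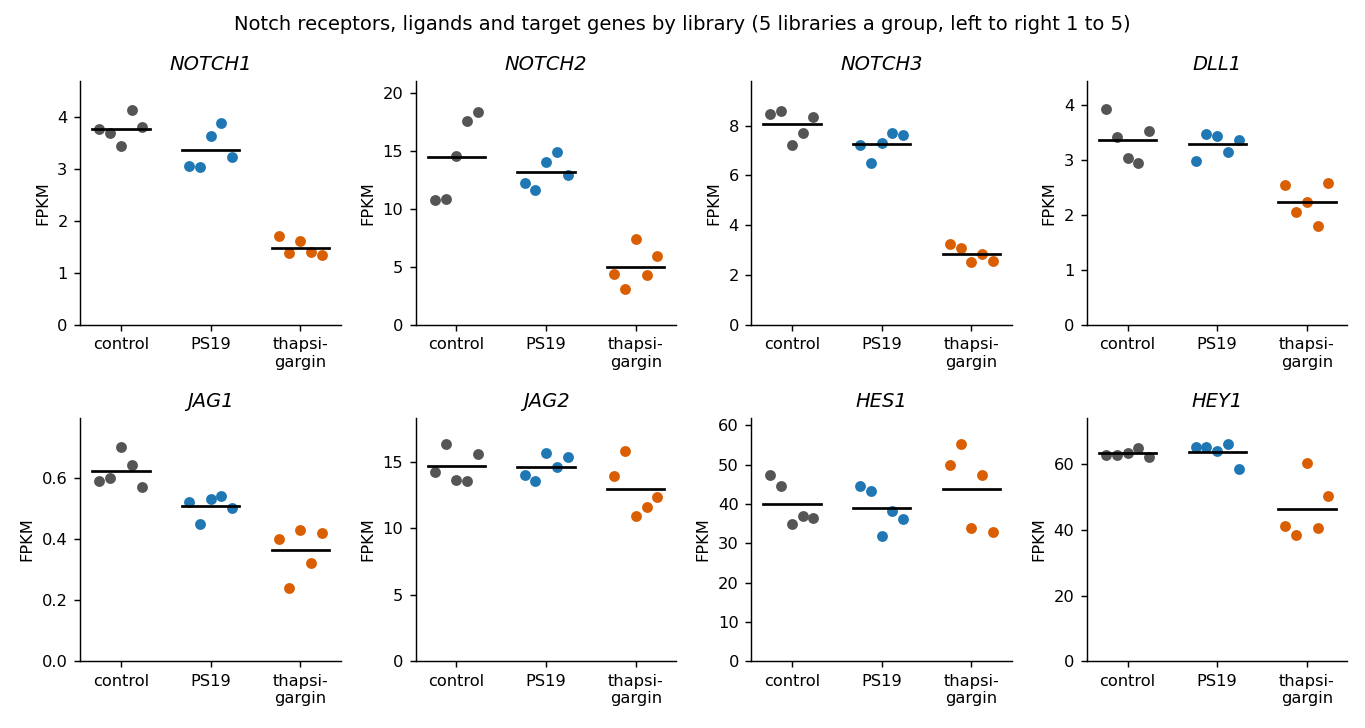
FPKM of the 8 members in each library, with 1 panel per gene and a vertical axis that starts at 0. Points are libraries 1 to 5 from left to right within the control, PS19 and thapsigargin groups, and bars are group means; the thapsigargin points of NOTCH1, NOTCH2, NOTCH3, DLL1, JAG1 and HEY1 lie below all control points, while those of JAG2 and HES1 overlap with them.

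NOTCH1, the receptor known for its role in T cell development and in leukemia, had the same ordering of groups at a lower level. It measured 3.77, 3.68, 3.44, 4.12 and 3.80 FPKM in the control libraries, 3.05, 3.03, 3.63, 3.87 and 3.23 FPKM in the PS19 libraries, and 1.70, 1.37, 1.60, 1.39 and 1.34 FPKM in the thapsigargin libraries. All thapsigargin values were below all others, and the log2 fold change against control was -1.11 (SE 0.09). The gene lies on chromosome 9 from 136494433 to 136546048.

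NOTCH2, the receptor needed for proximal nephron formation in the mouse, was the most abundant receptor in every group and spanned the widest FPKM range. It measured 10.74, 10.87, 14.53, 17.57 and 18.32 FPKM in the control libraries, 12.20, 11.64, 14.04, 14.91 and 12.92 FPKM in the PS19 libraries, and 4.35, 3.08, 7.41, 4.24 and 5.91 FPKM in the thapsigargin libraries. Thapsigargin values were all below the control and PS19 values, with a log2 fold change of -1.46 (SE 0.21), the largest standard error of the 7 members that reached a mean of 1 FPKM. Control libraries 1 and 2, with the lowest long-transcript index of their group, had the lowest NOTCH2 values of their group, and thapsigargin library 3, with the highest index of its group, had the highest. What part of the NOTCH2 values goes with this difference between libraries, in coverage or in expression, was not tested. NOTCH2 lies on chromosome 1 from 119911553 to 120069662 and has the near-identical partial copies NOTCH2NLA, NOTCH2NLB and NOTCH2NLC, so that the division of reads between them is uncertain. The copies were at 0.38, 1.21 and 1.83 FPKM in control, 0.428, 1.102 and 1.53 FPKM in PS19 and 0.256, 1.13 and 1.73 FPKM in thapsigargin libraries (means, n = 5), and all were below NOTCH2 in each group.

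Summed over NOTCH1, NOTCH2 and NOTCH3, receptor RNA was 26.2 ± 3.5 FPKM in control, 23.8 ± 2.08 FPKM in PS19 and 9.33 ± 1.51 FPKM in thapsigargin libraries (SD, n = 5). The thapsigargin sums of 7.53 to 11.6 FPKM did not reach the lowest control sum of 23 FPKM. In these bulk libraries, fewer cells with the RNA and less RNA per cell cannot be told apart. The makeup of the sum was similar between groups: NOTCH3 contributed 31.2 ± 5.32% in control, 30.7 ± 1.49% in PS19 and 31.4 ± 7.48% in thapsigargin libraries, and the share of NOTCH2 was 54.3 ± 6.83%, 55.2 ± 0.992% and 52.5 ± 9.61%. The share of NOTCH1 was 14.5 ± 1.63%, 14.1 ± 0.513% and 16.1 ± 2.25%. For each receptor, the range of shares in the thapsigargin libraries overlapped that in the control libraries.

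Ligand genes were less uniform than receptor genes. DLL1, a Delta-like ligand, measured 3.93, 3.42, 3.04, 2.95 and 3.53 FPKM in the control libraries, 2.98, 3.48, 3.44, 3.15 and 3.37 FPKM in the PS19 libraries, and 2.54, 2.05, 2.23, 1.80 and 2.58 FPKM in the thapsigargin libraries. The thapsigargin values lay below all others, with a log2 fold change against control of -0.50 (SE 0.11) that was -0.23 after quantile normalization. JAG2, a Jagged ligand, was the most abundant ligand, with 14.26, 16.39, 13.65, 13.60 and 15.63 FPKM in the control libraries, 14.04, 13.54, 15.67, 14.61 and 15.34 FPKM in the PS19 libraries, and 13.97, 15.82, 10.91, 11.65 and 12.34 FPKM in the thapsigargin libraries. JAG2 was low in thapsigargin libraries 3, 4 and 5, but libraries 1 and 2 lay within the control range, and the log2 fold change was -0.19 (SE 0.10). It ranged from -0.35 after rescaling to TPM to -0.06 after median-ratio scaling, and was -0.32 without thapsigargin libraries 1 and 2.

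JAG1, the Jagged ligand mutated in Alagille syndrome, was the weakest member and stayed below 1 FPKM throughout. It measured 0.59, 0.60, 0.70, 0.64 and 0.57 FPKM in the control libraries, 0.52, 0.45, 0.53, 0.54 and 0.50 FPKM in the PS19 libraries, and 0.40, 0.24, 0.43, 0.32 and 0.42 FPKM in the thapsigargin libraries. The 3 groups did not overlap, with control highest and thapsigargin lowest. The difference in log2(FPKM + 0.5) from control was -0.15 (SE 0.04) in PS19 and -0.38 (SE 0.07) in thapsigargin libraries, on a scale that understates the change of a gene this weak.

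The target genes were the most abundant members. HEY1, a hairy-related repressor, measured 62.95, 62.96, 63.42, 65.02 and 62.23 FPKM in the control libraries, 65.21, 65.37, 64.12, 66.08 and 58.52 FPKM in the PS19 libraries, and 41.27, 38.54, 60.44, 40.62 and 50.48 FPKM in the thapsigargin libraries. All thapsigargin values were below all control values, but library 3 came within the range of the PS19 libraries, and the log2 fold change against control was -0.47 (SE 0.11). HES1, the classical Notch target and a repressor that also responds to other pathways, measured 47.23, 44.45, 34.83, 36.84 and 36.44 FPKM in the control libraries, 44.64, 43.35, 31.84, 38.17 and 36.22 FPKM in the PS19 libraries, and 49.81, 55.10, 33.98, 47.47 and 32.95 FPKM in the thapsigargin libraries. HES1 thus spanned a wide range within each group and the groups overlapped, with a log2 fold change for thapsigargin of 0.11 (SE 0.15) that was -0.05 after rescaling to TPM and -0.08 without thapsigargin libraries 1 and 2. The HES1 transcript has 1575 bases, and HES1 was high in control libraries 1 and 2 and in thapsigargin libraries 1, 2 and 4, the libraries with the lowest long-transcript index of their groups. What part of the HES1 values goes with this difference between libraries, in coverage or in expression, was not tested.

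By mean FPKM, the members kept a similar order in all groups. In control and PS19 libraries it ran HEY1, HES1, JAG2, NOTCH2, NOTCH3, NOTCH1, DLL1 and JAG1 from high to low, and only JAG2 and NOTCH2, and NOTCH1 and DLL1, were neighbors whose ranges overlapped. In thapsigargin libraries DLL1 (2.24 ± 0.33 FPKM, SD, n = 5) stood above NOTCH1 (1.48 ± 0.16 FPKM) without overlap. There the ranges of HEY1 and HES1, of NOTCH2 and NOTCH3, and of NOTCH3 and DLL1 overlapped.

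The comparison of PS19 with control asks what the lysate that seeds tau aggregation does to these genes, and it was not used to choose them. Of the 7 members above the filter (a mean over all libraries of 1 FPKM or more), 0 passed an adjusted p of 0.1 in limma, against 0.0425% of the 11753 genes tested (5 genes, 0.017% higher and 0.0255% lower). At an unadjusted p under 0.05 there were 706 genes, none of the members among them. NOTCH3 was nearest, with a log2 fold change of -0.14 (SE 0.07, unadjusted p = 0.059, adjusted p = 0.828 from limma), followed by NOTCH1 with -0.15 (SE 0.08, adjusted p = 0.828). NOTCH2 was at -0.10 (SE 0.13, adjusted p = 0.907) and DLL1 at -0.03 (SE 0.08, adjusted p = 0.954). HES1 was at -0.04 (SE 0.10, adjusted p = 0.946), while JAG2 at -0.004 (SE 0.07, adjusted p = 0.995) and HEY1 at 0.01 (SE 0.05, adjusted p = 0.978) lay nearest to 0. The median of the 7 members was -0.04 against -0.01 for all genes tested. These standard errors leave room for small changes in either direction. Without control libraries 1 and 2, a choice made after the data were seen, NOTCH2 was at -0.34 with an adjusted p of 0.0286 from limma, and 2438 genes passed in place of 5. The libraries left out have the lowest long-transcript index of their group. Correction of each library for transcript length and GC content, also chosen after the data were seen, gave -0.05 for NOTCH2 (adjusted p = 0.9135, limma). It gave -0.12 for NOTCH1 and -0.11 for NOTCH3. What part of the NOTCH2 value goes with the index was not tested.

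JAG1, under the filter, was compared by an exact permutation test, two-sided, of the 10 libraries, which gave p = 0.0079, the smallest that 5 against 5 libraries can give, with all PS19 values below all control values. Of 1556 genes with a mean of 0.25 to 1 FPKM, 1.22% were lower in PS19 without overlap, as were 0.579% of the genes above the filter. In the limma fit of all genes without a filter, the adjusted p of JAG1 was 0.543. The exact p was 0.0079 to 0.0179 over the scalings, pseudocounts and left-out libraries tried. Groups without overlap stay apart when libraries are left out or the pseudocount changes. This range was thus largely fixed by the group sizes and adds no support.

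**Figure D2:**
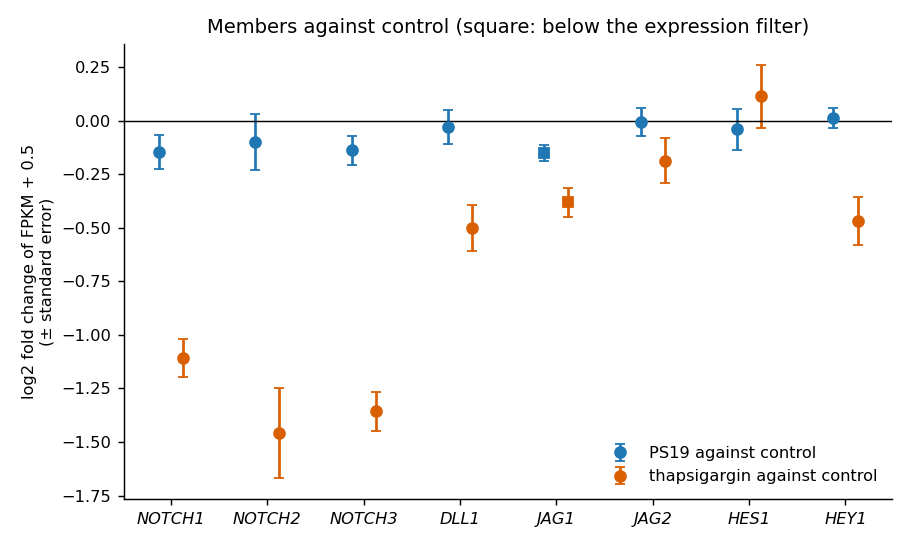
Log2 fold change of FPKM + 0.5 against control for each member, with PS19 in blue and thapsigargin in orange. Points are estimates from 5 against 5 libraries, error bars are 1 standard error, and squares mark JAG1, which is below the expression filter. The blue points lie between -0.15 and 0.01, and the orange points of the 3 receptors lie between -1.46 and -1.11.

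In the thapsigargin comparison, 5 of the 7 members above the filter were lower without overlap with control: NOTCH1, NOTCH2, NOTCH3, DLL1 and HEY1. Because this contrast was used to choose the members, no test is given for them and nothing is read from the count, and thapsigargin moved most genes: at an adjusted p of 0.1, 69.4% of the 11753 genes tested passed, 43.4% lower and 26% higher, and 25.3% were lower without overlap. JAG1, at a weaker level, did not overlap either, as did 18.8% of genes with a mean of 0.25 to 1 FPKM. The median log2 fold change was -0.50 for the 7 members and -0.13 for all genes tested. The median over all genes was -0.29 after rescaling to TPM and -0.02 after quantile normalization, and 3058 higher and 5100 lower genes (37.5% of calls higher) became 2039 and 6424 (24.1%) with TPM, 4014 and 3937 (50.5%) with median-ratio scaling and 3716 and 4132 (47.4%) with quantile normalization.

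The place of the members among all genes is given as a description, since the set was chosen on this fall of NOTCH3. A fold change lower than that of NOTCH2 was found for 0.332% of the genes tested, lower than NOTCH3 for 0.553% and lower than NOTCH1 for 1.78%. Long transcripts were lower in general: the median log2 fold change was 0.26 for genes under 1500 bases, -0.24 for 3000 to 6000 bases, -0.39 for 6000 to 9000 bases and -0.45 for 9000 to 13000 bases. Within their own length classes, 0.604% of 497 genes were below NOTCH2, 3.42% of 497 below NOTCH1 and 0.629% of 1431 below NOTCH3. DLL1 and HEY1 were less far down, with 28% of 4284 and 13.7% of 3433 genes of their length classes below them. JAG2 and HES1 were in the middle, at 55.4% and 58.9%. After correction of each library for transcript length and GC content, chosen after the data were seen, the log2 fold changes were -0.95 for NOTCH1, -1.04 for NOTCH2, -1.19 for NOTCH3, -0.44 for DLL1, -0.38 for HEY1, -0.09 for JAG2 and 0.04 for HES1.

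**Figure D3:**
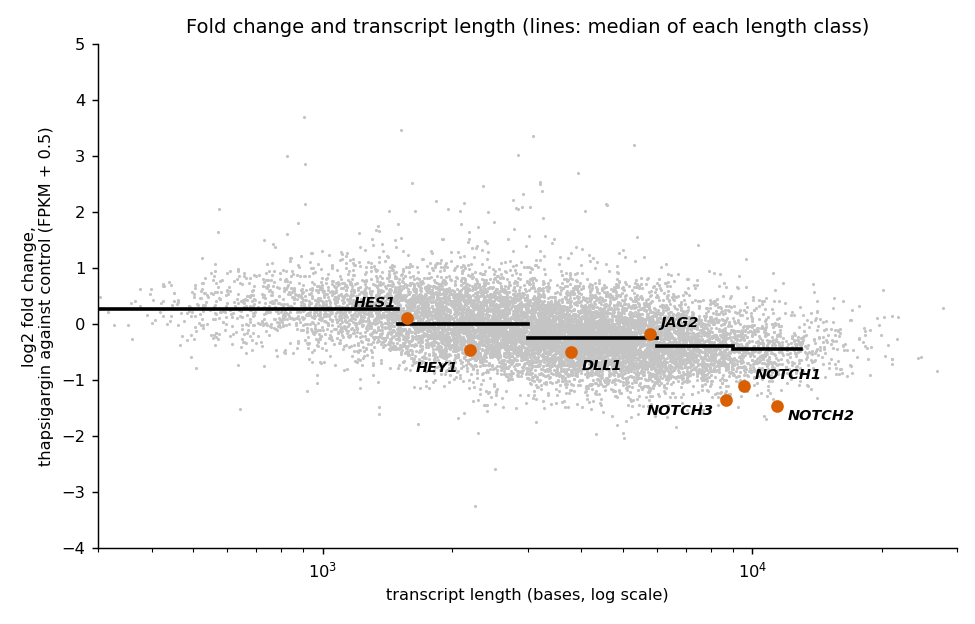
Log2 fold change of thapsigargin against control (vertical axis, FPKM + 0.5) for genes tested with a known transcript length (horizontal axis, bases, log scale). Gray points are genes, black lines are medians of length classes, which run from 0.26 below 1500 bases to -0.45 at 9000 to 13000 bases, and orange points are the 7 members above the filter; NOTCH1, NOTCH2 and NOTCH3 lie at -1.11, -1.46 and -1.36, below the median of their class.

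The rest of the pathway was followed in a list of 59 genes, of which 48 were above the filter. In PS19 libraries 0 of the 48 passed, with a median of -0.06 against -0.01 for all genes tested. At an unadjusted p under 0.05 there were 3 of 48, close to the share over all genes, 706 of 11753. Among the 3 were FHL1 at a log2 fold change of -0.18 and HES5 at -0.31, with adjusted p-values of 0.631 and 0.694 from limma. Without control libraries 1 and 2, there were 2 higher and 9 lower, against 877 higher and 1561 lower of all 11753 genes. In thapsigargin libraries 13 were higher and 23 lower and 12 did not pass, with a median of -0.18 against -0.13 for all genes tested, so that the shares were close to those over all genes. The split was 10 higher and 27 lower with TPM, 19 and 18 with median-ratio scaling, 16 and 19 with quantile normalization and 18 and 19 after length and GC correction. Single genes of the list are tested below in this comparison, with adjusted p-values from limma over all 11753 genes. The counts of each sub-list below are a description, and nothing is read from them. Over all genes tested, 43.4% were lower and 26% higher.

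**Figure D4:**
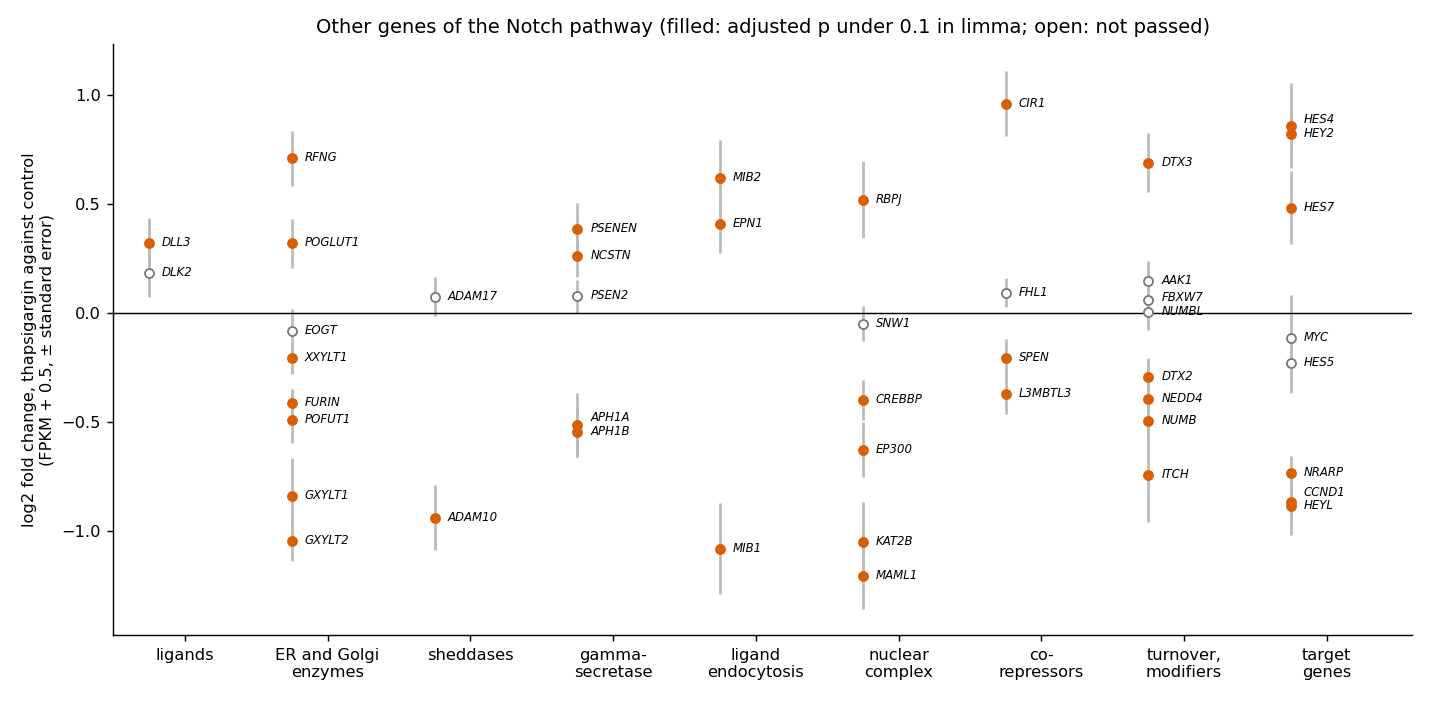
Log2 fold change of thapsigargin against control for genes of the pathway list above the filter, ordered by role along the horizontal axis. Filled points passed an adjusted p of 0.1 in limma, open points did not, and bars are 1 standard error; MAML1 at -1.20 is the lowest and CIR1 at 0.96 the highest.

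Among genes of the nuclear complex, RBPJ was higher, and MAML1, KAT2B, EP300 and CREBBP were lower. RBPJ, the partner of the Notch intracellular domain, measured 17.15, 19.89, 19.80, 19.46 and 22.53 FPKM in the control libraries and 28.35, 41.00, 20.17, 37.05 and 21.46 FPKM in the thapsigargin libraries. It rose by a log2 fold change of 0.52 (SE 0.18, adjusted p = 0.0218, limma), with thapsigargin libraries 3 and 5 inside the control range, and by 0.88 after length and GC correction. MAML1, the Mastermind-like co-activator, measured 21.44, 21.53, 24.16, 27.38 and 26.40 FPKM in the control libraries and 9.91, 6.97, 13.43, 9.44 and 12.26 FPKM in the thapsigargin libraries, without overlap. MAML1 changed by -1.20 (SE 0.15, adjusted p = 4.8e-05, limma). The acetyltransferases KAT2B (-1.05, adjusted p = 0.000482), EP300 (-0.63, adjusted p = 0.00123, and -0.21 after length and GC correction) and CREBBP (-0.40, adjusted p = 0.00296, but 0.291 after length and GC correction) fell as well in limma. SNW1, a splicing protein also known as a Notch co-activator and the most abundant of this list at a mean of 45.6 FPKM, was at -0.05 (adjusted p = 0.624). Of the 6 genes above the filter, 1 was thus higher, 4 were lower and 1 did not pass, with a median of -0.51. Over all genes tested, the shares were 26% higher and 43.4% lower.

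Of the 5 co-repressors of RBPJ, 1 rose, 3 fell and 1 did not pass. CIR1, which links RBPJ to histone deacetylases, rose from 25.1 ± 1.96 to 50.7 ± 14.6 FPKM (SD, n = 5) without overlap, by 0.96 (SE 0.15, adjusted p = 0.000239, limma), and the highest value was 74.89 FPKM in thapsigargin library 2. SPEN (-0.21, adjusted p = 0.0557) and L3MBTL3 (-0.37, adjusted p = 0.00375) fell in limma, but these calls moved with the processing. After length and GC correction SPEN, with a transcript of 12385 bases, was at 0.17 (adjusted p = 0.0282) and L3MBTL3 at -0.07 (adjusted p = 0.493). SPEN also did not pass with median-ratio scaling (adjusted p = 0.477), or without control library 4 (-0.18, adjusted p = 0.122), control library 5 (-0.15, adjusted p = 0.146) or thapsigargin library 5 (-0.17, adjusted p = 0.122). FHL1, a LIM-domain protein with an RBPJ-binding isoform and the most abundant of the list at 120 FPKM, was at 0.09 (adjusted p = 0.234).

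Target genes outside the members divided, with 3 higher, 3 lower and 2 that did not pass, a median of -0.17. HEY2, a relative of HEY1, measured 9.30, 8.74, 7.51, 8.09 and 8.39 FPKM in the control libraries and 15.21, 17.02, 13.38, 17.65 and 13.32 FPKM in the thapsigargin libraries, which do not overlap. Its log2 fold change was 0.82 (SE 0.10, adjusted p = 3.8e-05, limma). HES4, a HES1-like repressor and the most abundant gene of this list, measured 134.97, 121.67, 110.73, 98.49 and 100.75 FPKM in the control libraries and 259.21, 310.74, 130.25, 198.74 and 172.33 FPKM in the thapsigargin libraries. Thapsigargin library 3 lay below control library 1, and the log2 fold change was 0.86 (SE 0.20, adjusted p = 0.00248, limma). The HES4 transcript has 885 bases, and after length and GC correction the value was 0.30. HES7, an oscillating gene of somite formation, rose by 0.48 at 1.84 to 2.80 FPKM (adjusted p = 0.0227, limma), a call that ended after length and GC correction (adjusted p = 0.156) and without thapsigargin libraries 1 and 2 (adjusted p = 0.129).

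NRARP, a target that inhibits Notch signaling in return, measured 24.84, 20.82, 22.44, 23.65 and 20.78 FPKM in the control libraries and 13.32, 12.14, 13.40, 13.49 and 14.33 FPKM in the thapsigargin libraries, well apart, and fell by 0.73 (SE 0.08, adjusted p = 1.6e-05, limma). HEYL, the third gene of the HEY family, fell from 4.24 ± 0.527 to 2.09 ± 0.44 FPKM (SD, n = 5) without overlap, by 0.89 (adjusted p = 0.000156, limma). CCND1, the gene of cyclin D1, fell from 4.56 ± 0.469 to 2.27 ± 0.115 FPKM (SD, n = 5), by 0.86 (adjusted p = 1e-05, limma). MYC at -0.11 (adjusted p = 0.634) and HES5 at -0.23 (adjusted p = 0.16) did not pass in limma. Within the HEY family, HEY2 was therefore higher while HEYL was lower, as was HEY1 in its values.

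At the cell surface, ADAM10, the sheddase of ligand-bound Notch, measured 5.45, 5.51, 7.24, 7.51 and 7.36 FPKM in the control libraries and 2.83, 2.37, 4.50, 3.01 and 3.54 FPKM in the thapsigargin libraries, without overlap. ADAM10 changed by -0.94 (SE 0.15, adjusted p = 0.000269, limma), and by -0.51 after length and GC correction. ADAM17, the other sheddase and the more abundant at a mean of 8.24 FPKM, was at 0.08 (adjusted p = 0.472). The 6 subunits of gamma-secretase divided into 2 higher, 2 lower and 2 that did not pass. PSENEN rose by 0.39 (adjusted p = 0.0136, limma), by 0.23 with TPM (adjusted p = 0.0616) and by 0.25 after length and GC correction (adjusted p = 0.0688), and NCSTN, nicastrin, rose by 0.26 (adjusted p = 0.029, limma), a call that ended with TPM (adjusted p = 0.441) and without control libraries 1 and 2 (adjusted p = 0.12). APH1A, the most abundant subunit at 70.3 FPKM, fell by 0.51 (adjusted p = 0.00872, limma) and APH1B by 0.54 (adjusted p = 0.00161), the first by 0.33 without thapsigargin libraries 1 and 2 and the second by 0.24 after length and GC correction. PSEN2, a catalytic subunit, was at 0.08 (adjusted p = 0.376).

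Of 8 ER and Golgi enzymes above the filter, 2 rose, 5 fell and 1 did not pass, with a median of -0.31. The glycosyltransferase genes that fell were GXYLT2 (6.36 to 2.82 FPKM, -1.05, adjusted p = 2.9e-06) and GXYLT1 (-0.84, adjusted p = 0.00138, and -0.42 after length and GC correction), which add xylose to the O-glucose of Notch repeats, XXYLT1 (-0.21, adjusted p = 0.0253), which extends that chain, and POFUT1 (-0.49, adjusted p = 0.00204, and -0.15 after length and GC correction), which adds O-fucose. The XXYLT1 call ended with median-ratio scaling (adjusted p = 0.438), with quantile normalization (adjusted p = 0.11) and without control libraries 1 and 2 (adjusted p = 0.133). FURIN, the protease of the first cleavage, fell by 0.41 (adjusted p = 0.000328, limma) with thapsigargin values of 13.24 to 14.37 FPKM against 17.5 to 19.99 FPKM in control. RFNG, a fringe enzyme that extends O-fucose and the most abundant of the list, rose from 18.95 to 31.7 FPKM, by 0.71 (adjusted p = 0.000535, limma), and by 0.41 after length and GC correction. POGLUT1, the O-glucosyltransferase, rose by 0.32 (adjusted p = 0.0245, limma), a call that ended with TPM (adjusted p = 0.285) and without control libraries 1 and 2 (adjusted p = 0.129). EOGT was at -0.08 (adjusted p = 0.49).

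Among genes of ligand endocytosis, which pulls on the bound receptor, 2 rose and 1 fell. MIB1, the ubiquitin ligase of the ligands, measured 6.18, 5.94, 7.70, 9.25 and 10.04 FPKM in the control libraries and 2.81, 2.11, 5.61, 3.21 and 3.89 FPKM in the thapsigargin libraries, and fell by 1.08 (SE 0.21, adjusted p = 0.000969, limma). As for NOTCH2, the lowest MIB1 values of the control group were those of libraries 1 and 2. After length and GC correction MIB1 was at -0.65. Its relative MIB2 rose by 0.62 (adjusted p = 0.00834, limma), and by 0.33 without thapsigargin libraries 1 and 2. EPN1, an endocytic adaptor and the most abundant of this list at 105.5 FPKM, rose by 0.41 (adjusted p = 0.0176, limma), but not after quantile normalization (adjusted p = 0.105) or without thapsigargin libraries 1 and 2 (adjusted p = 0.113). Of the ligands outside the members, DLL3, a Delta-like protein that acts against Notch within the same cell, rose by 0.32 (adjusted p = 0.0315, limma) at 6.23 to 7.94 FPKM with overlap, a call that ended with TPM (adjusted p = 0.172), after length and GC correction (adjusted p = 0.712) and without thapsigargin libraries 1 and 2 (adjusted p = 0.176), and DLK2 was at 0.19 (adjusted p = 0.168).

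Genes of receptor turnover and their modifiers were 1 higher, 4 lower and 3 not passed, with a median of -0.14. NUMB, an endocytic antagonist of Notch and the most abundant of this list at 21.8 FPKM, fell by 0.49 (adjusted p = 0.000687, limma), and by 0.23 after length and GC correction. The ubiquitin ligase genes ITCH (-0.74, adjusted p = 0.00953), NEDD4 (-0.39, adjusted p = 0.0543) and DTX2 (-0.29, adjusted p = 0.0108) fell, and DTX3 rose by 0.69 (adjusted p = 0.00101, limma). ITCH was at -0.34 after length and GC correction, and DTX2 did not pass with median-ratio scaling (adjusted p = 0.177). The NEDD4 call rested on single libraries: it ended without control library 4 or 5 or thapsigargin library 1, 2 or 4 (-0.37 to -0.30, adjusted p = 0.103 to 0.138), with quantile normalization (adjusted p = 0.355) and after length and GC correction (-0.02, adjusted p = 0.836). NUMBL (0.01), FBXW7 (0.06) and AAK1 (0.15) did not pass, with adjusted p-values of 0.957, 0.558 and 0.194 from limma.

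The genes whose profile over the 15 libraries was most like that of NOTCH3 were ranked by the root mean square difference of mean-centered log2(FPKM + 0.5) values. The nearest of all genes tested were KANK2, a regulator of the cortical cytoskeleton (0.122), CELSR2, an adhesion receptor of the cadherin family (0.136), BCAM, a laminin receptor (0.138), MAP1A, a microtubule-associated protein (0.142), and NYNRIN (0.142). Their means were 8.06, 6.88, 10.1, 5.96 and 3.85 FPKM in control and 3.20, 2.64, 3.47, 2.18 and 1.42 FPKM in thapsigargin libraries. Of the members, NOTCH1 was the nearest at 0.163, with 13 other genes closer, and NOTCH2 followed at 0.364 with 918 genes closer. DLL1 was at 0.408, HEY1 at 0.447, JAG2 at 0.53 and HES1, the least like NOTCH3, at 0.697. All 15 libraries share 1 cell line, and the 5 thapsigargin libraries set most of these profiles.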

How the data were processed

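RNA-Seq of 15 libraries was used, grouped by the treatment in their labels, 5 each for control, PS19 and thapsigargin. Stranded mRNA reads were cleaned by the authors with SOAPnuke and aligned to GRCh38.p12 (HISAT2 2.0.4), and the deposited tables hold FPKM for each gene, computed in RSEM 1.2.12. No scaling between libraries is stated. For their own differential expression the authors used DESeq2 1.4.5 on counts that were not used here. One control column held descriptive text in other rows, a unit recorded as other in the deposited table, and its numeric values are FPKM as well. Rows without a gene ID or value were left out (1101 of 19439 control rows, and 693 of 19031 in each other table), and 26 gene symbols turned into dates were restored from the gene ID. The depth of each library was not derived from the values, and no counting error is given. A search for steps of whole reads (tolerance 0.15 reads) found them in 0 of 1525 genes with low values. It assumed the same step in every library of a gene, so this result cannot show whether depth could be derived.

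For 11753 genes whose mean FPKM in the 15 libraries was 1 or more, log2(FPKM + 0.5) was modeled in limma 3.58.1 under R 4.3.3 (mean-variance trend, two-sided, 5 against 5 libraries, Benjamini-Hochberg, threshold an adjusted p of 0.1). JAG1, below the filter, was compared by an exact permutation test with a threshold of 0.05. The fit was tested on simulated data drawn independently for each gene and library. These held no difference between libraries in long transcripts, so the simulation does not cover that feature of the data. Transcript length (96.3% of tested genes) and GC content came from GENCODE canonical transcripts, matched by gene symbol. Named genes were all members, every pathway gene past the threshold in the PS19 comparison, up to 12 pathway genes of smallest p in each direction for thapsigargin, the most abundant gene of each sub-list, the 5 genes most like NOTCH3 and the ER stress genes HSPA5, DDIT3 and SDF2L1. Other genes of the pathway list are named to account for each count and were chosen after their values were seen. A few listed genes are counted in the totals but not reported here by name. The members, lists and rules were chosen with earlier results of these data known. Alternatives were pseudocounts of 0.1 and 1, no filter or a mean of 5 FPKM, quantile normalization, rescaling to TPM, scaling by median ratios, a joint fit of all libraries, a replicate block, no trend, a threshold of 0.05 and each library left out. Chosen after seeing the data were the length and GC correction and fits without control or thapsigargin libraries 1 and 2.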

Additional observations from a re-analysis of the deposited data

Results flagged for a closer look

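Dixon's test was run on the members, the pathway genes of smallest p for thapsigargin and the most abundant gene of each sub-list. It looked for a library far from the others in 114 groups of 5 libraries. The critical value of 0.71 was passed in 3 groups, where chance alone passes about 1 in 20 groups. Other genes of the pathway list were not examined. HEY1 in the PS19 group had a lowest value of 58.52 FPKM, in library 5, against 64.12 FPKM in the nearest library. RFNG in the PS19 group had a highest value of 23.21 FPKM, also in library 5, against 19.27 FPKM in the nearest. SNW1 in the PS19 group had a highest value of 49.21 FPKM, in library 3, against 46.25 FPKM in the nearest.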

How the results depend on the processing

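The PS19 comparison called few genes and its count moved with the setting: 5 genes became 3 with no filter, 0 with TPM, 3 with median-ratio scaling, 0 with all libraries in 1 fit, 3 without the trend, 2 at a threshold of 0.05, 27 after length and GC correction and 2438 without control libraries 1 and 2, with 2 higher and 9 lower pathway genes in that last fit. Leaving out each library gave 0 to 13 genes (13 without control library 1, 0 without PS19 library 1 or 3). The replicate number as a block gave 13 genes; of 5 same-numbered pairs, 4 in each comparison deviated together with a correlation over 0.1 and 1 did not (range -0.209 to 0.325 for PS19 and -0.128 to 0.609 for thapsigargin, own number highest in 2 and 1 of 5), so the numbers, which had to pair in all 5, were not treated as pairs. PS19 folds near 0 changed sign: HEY1 to -0.0123 with TPM and -0.0149 with quantile normalization (-0.0015 to 0.0419 with a library left out), JAG2 to 0.0109 with median-ratio scaling, 0.0107 with quantile normalization, 0.0123 after length and GC correction and 0.0343 without control libraries 1 and 2 (-0.0307 to 0.0344), DLL1 to 0.0143 with quantile normalization and 0.0443 without those libraries (-0.0701 to 0.0201), and HES1 to 0.0967 without them (-0.0926 to 0.0277). For thapsigargin HES1 changed sign to -0.0483 with TPM and -0.076 without thapsigargin libraries 1 and 2, SPEN changed sign to 0.1705 after length and GC correction, and the genes called numbered 6032 to 9216. The cause of these changes was not tested. Depth is known only as the nominal number of reads in the study's methods. No counting error was computed for values below 1 FPKM, JAG1 among them.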

Other observations

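Pathway genes below the filter, chosen here after their values were seen and given without a test, included a receptor that was higher after thapsigargin. NOTCH4, the receptor known from endothelium, measured 0.12, 0.10, 0.13, 0.09 and 0.14 FPKM in the control libraries, 0.14, 0.20, 0.12, 0.09 and 0.17 FPKM in the PS19 libraries and 0.27, 0.26, 0.19, 0.24 and 0.17 FPKM in the thapsigargin libraries, so that the thapsigargin values lay above all control values. Of the genes above the filter, 14.7% were higher after thapsigargin without overlap. No such share was computed for genes as weak as NOTCH4. Of the Mastermind-like co-activators, MAML2 was at 0.35 to 0.81 FPKM in control and 0.22 to 0.33 FPKM in thapsigargin libraries, and MAML3 at 0.84 to 1.53 and 0.40 to 0.69 FPKM. NEURL1B, a ubiquitin ligase of Notch ligands, was at 0.74 to 0.97 FPKM in control, 0.78 to 0.85 FPKM in PS19 and 0.14 to 0.24 FPKM in thapsigargin libraries. MAML2, MAML3 and NEURL1B were thus lower without overlap, as were 18.8% of genes with a mean of 0.25 to 1 FPKM. DLL4, the ligand of sprouting vessels, was at 0.38 to 0.60 FPKM in control, 0.29 to 0.46 FPKM in PS19 and 0.20 to 0.44 FPKM in thapsigargin libraries, with overlap between all groups. DLK1 was listed at 0 in 14 of the 15 libraries.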
